A study of Mus musculus with 12 samples.

Results

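Subcutaneous colorectal tumours of mice under chronic stress that received the low dose of Xiao-chai-hu decoction were compared with tumours of mice under chronic stress alone. The comparison used the 3 libraries labelled low dose and the 3 labelled stress, 6 of the 12 messenger RNA libraries of the study. Every group of the study carried the subcutaneous tumour. The control group had the tumour alone, the stress group had chronic stress added, and the 2 dose groups had chronic stress and either the low or the high dose of the decoction. The doses in numbers, the way of dosing, the kind of stress, the tumour cell line, and the strain, sex and age of the mice are not given in the sources used here. Nothing in the labels ties a replicate to a separate animal, so the p-values speak only for these libraries. They set the difference between the groups against the spread among libraries within groups, estimated over all 12 libraries unless stated. Technical variation may contribute to that spread.

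Xiao-chai-hu decoction is a preparation of several herbs from traditional Chinese medicine. A subcutaneous tumour is a mixture of cancer cells with macrophages, dendritic cells, lymphocytes, fibroblasts and vessels, and its bulk messenger RNA sums over all of them. Dendritic cells take up antigen and present it on MHC class II molecules to T cells, whereas tumour macrophages often turn on genes of wound repair such as arginase. Hypoxia response genes are turned on where oxygen runs short, and heat shock chaperones help newly made or damaged proteins to fold.

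The 6 libraries held 16813536 to 17950195 estimated counts, with 15476 to 15731 genes above 0. Libraries within each group did not all look alike. In replicate 1 of the low dose, deviations of genes from their mean over all 12 libraries correlated across genes at 0.18 with stress replicate 1 and at 0.18 with stress replicate 2. The correlation was -0.04 with stress replicate 3, and -0.13 and -0.42 with low-dose replicates 2 and 3. Low-dose replicates 2 and 3 correlated with each other at 0.17, and the stress libraries among themselves at 0.02, -0.01 and -0.16. Low-dose replicate 3 held skeletal muscle transcripts, with a muscle score of 2.46 on the log2 scale, against -1.64 and -1.65 in the other low-dose libraries and 0.868, -1.92 and -1.63 in the stress libraries. In low-dose replicate 2, a gene's deviation fell with the length of its longest transcript, with a correlation across genes of -0.52. The same correlation was 0.04 and -0.16 in low-dose replicates 1 and 3 and 0.10 to 0.15 in the stress libraries. The labels name no batch.

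The labelled tissue was checked against colorectal epithelial markers. Of the 17 listed markers in the tables, 13 had too few counts to be tested, and their highest estimated count in any of the 12 libraries was 17. Among these were Epcam, an epithelial adhesion protein, with 0 to 14 counts, the keratin Krt8 with 0 to 2, and the intestinal protein Vil1 with 1 to 7. The other 4 were Muc2, a mucin, with 4 to 14 counts, the adhesion protein Cdh1 with 70 to 281, the galectin Lgals4 with 104 to 331 and the transcription factor Sox9 with 1765 to 3743. The listed keratin and claudin transcripts thus had at most 17 counts in any tumour, the controls included, while Cdh1, Lgals4 and Sox9 were present in every library. Of 19 neutrophil markers 12 had too few counts to be tested, among them S100a8 with at most 10, and 7 were tested, among them the protease Mmp9 with 382 to 1485 and the receptor Csf3r with 46 to 143.

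No gene passed an adjusted p of 0.05 between low dose and stress in edgeR's quasi-likelihood test, among 13453 genes tested (0%). The smallest adjusted p was 0.205. Without adjustment, 1796 genes had a p under 0.05, of which 915 were higher in the low dose (6.8% of genes tested) and 881 lower (6.55%). DESeq2 on the same counts called 95 genes at an adjusted p under 0.05, 55 higher (0.409%) and 40 lower (0.297%). The 3 low-dose libraries lay above all 3 stress libraries for 722 genes (5.37%) and below them for 884 (6.57%). These percentages are the background for the counts of list members given later, and the median log2 fold change over all genes was -0.00042, with 49.9% of genes above 0 and 50.1% below.

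The count of 0 depended on 1 library. With low-dose replicate 1 left out, 1244 genes passed in edgeR, of which 635 were higher and 609 lower. Leaving out any of the other 5 libraries gave 0. The DESeq2 count ran from 31 without stress replicate 3, through 34 without stress replicate 1, 48 without low-dose replicate 3, 52 without low-dose replicate 2 and 178 without stress replicate 2, to 2146 without low-dose replicate 1. All 95 genes kept their direction in each of these 6 fits. With only the 6 libraries compared, DESeq2 called 13 genes. For 93 of the 95 the same direction was found, a count that leaves out any gene not fitted there. In edgeR that fit called 0 genes, with a smallest adjusted p of 0.732.

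Expression also differed by transcript length. The median longest transcript was 2286 bases for the 55 genes that DESeq2 called higher and 6323 bases for the 39 of the 40 lower ones with a known length, against 3424 bases over all genes tested. With each library's trend over length and GC content removed, DESeq2 called 47 genes, 44 of them among the 95, and all 95 kept their direction. Values with the trends removed are given below for part of the named genes and lists.

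**Figure D1:**
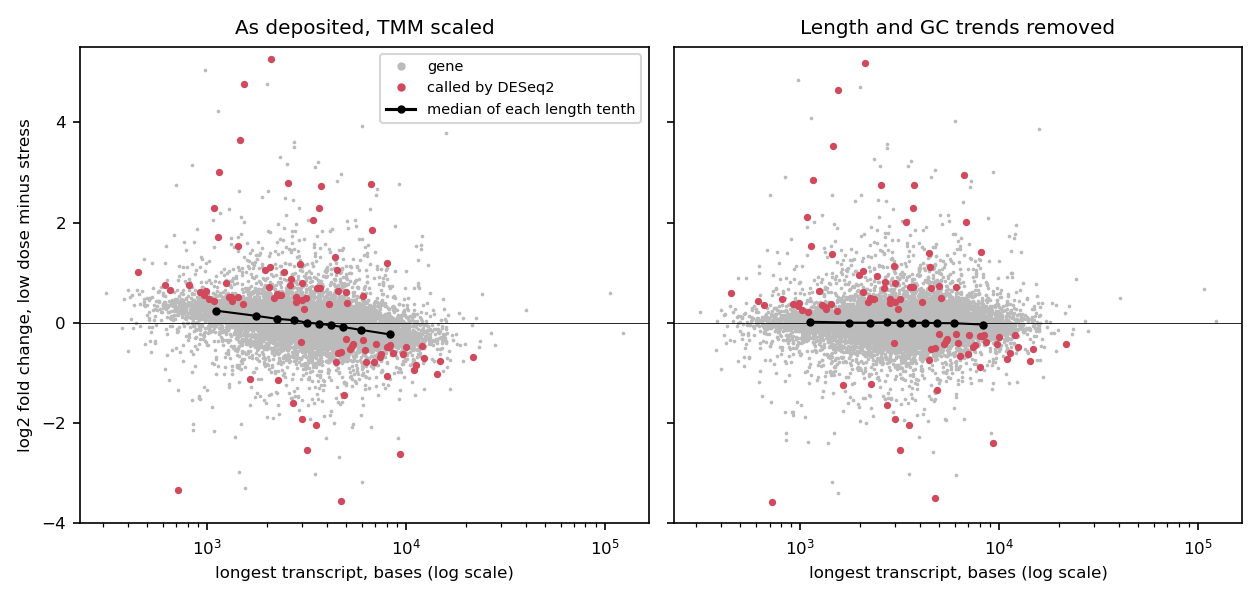
Each grey point is a gene, placed by the length of its longest transcript in bases (log axis) and its log2 fold change of low dose minus stress. Red points are genes called by DESeq2 and black circles are medians of length bins with equal numbers of genes. On the left the medians fall from 0.24 in the shortest bin to -0.23 in the longest, and on the right, with length and GC trends removed, they run from 0.02 to -0.03.

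Among genes below the stress level, Dnase1l3 and Tlr12 had the smallest p-values by edgeR, and both are known from dendritic cells. Dnase1l3 (chromosome 14, 7965187 to 7994760, GRCm38.p6) encodes a secreted enzyme that cuts DNA in chromatin and vesicles. It stood at 4.72, 3.32 and 2.29 CPM (estimated counts scaled to the library's total after TMM adjustment, which corrects totals for differences in composition) in stress replicates 1 to 3 and at 0.562, 0.0575 and 0.241 CPM in low-dose replicates 1 to 3. The groups did not overlap. The log2 fold change was -3.55 with a standard error (SE) of 0.55 (n = 3 libraries per group, edgeR adjusted p = 0.205, DESeq2 adjusted p = 2.38e-06). Leaving out single libraries moved it between -4.48 and -3.06.

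Tlr12 (chromosome 4, 128615446 to 128618619), a Toll-like receptor that senses a parasite protein, showed the same order of libraries. Its levels were 3.73, 2.21 and 1.83 CPM under stress and 0.562, 0.345 and 0.421 CPM with the low dose. All low-dose libraries lay below all stress libraries, with a log2 fold change of -2.53 (SE 0.38, edgeR adjusted p = 0.205, DESeq2 adjusted p = 0.000459). Both genes were sparse, with a mean FPKM (fragments scaled for transcript length and library size) under stress of 1.01 for Dnase1l3 and 0.907 for Tlr12.

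Most listed dendritic cell genes were lower with the low dose. Of 29 listed genes tested, 24 were lower, 14 of them with an unadjusted p under 0.05. Of the 29, 10 lay below all stress libraries, and DESeq2 called Dnase1l3 and Tlr12. The list was drawn up with earlier results of these data known and holds these top genes. Their calls are therefore not separate support for the list. No listed gene passed in edgeR, and none was higher with a p under 0.05. The list score, the mean deviation of log2 CPM, was 0.725, 0.162 and 0.0177 under stress and -0.191 in low-dose replicate 1 and -1 and -0.59 in the other low-dose libraries. All 3 low-dose scores lay below all 3 stress scores. Dnase1l3 and Tlr12 enter this score and the counts of members above, so the separation is not apart from them. A score without these genes was not computed. In bulk tissue, fewer dendritic cells and less of these RNAs per cell cannot be told apart.

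Flt3, the receptor that drives dendritic cell development, stood at 1.98, 1.22 and 2.23 CPM under stress against 0.787, 0.23 and 0.0602 CPM. Its log2 fold change was -2.30 (SE 0.70, edgeR adjusted p = 0.296). Ccl22, a chemokine made by mature dendritic cells, was at 6.36, 5.48 and 2.58 CPM against 2.19, 0.977 and 2.35 CPM, a log2 fold change of -1.38 (SE 0.40, adjusted p = 0.296). Neither gene's groups overlapped. Ccr7, the receptor that guides mature dendritic cells to lymph nodes, had a log2 fold change of -1.60 (SE 0.47, adjusted p = 0.296), but low-dose replicate 3 at 1.08 CPM lay above stress replicate 3 at 1.03 CPM. Zbtb46, a transcription factor of conventional dendritic cells, overlapped between the groups (-0.18, SE 0.18, adjusted p = 0.679). The 5 higher members all overlapped, Cd80 at 0.32, Ccl17 at 0.22, Irf8 at 0.13, Fscn1 at 0.07 and Relb at 0.05. Members with the highest mean levels under stress differed little, Fscn1 (207 CPM) at 0.07, Ppt1 (106.5 CPM) at -0.22 and Naaa (70.2 CPM) at -0.21. The list median was -0.97, was -0.95 with the length and GC trends removed, and shrank to -0.47 without stress replicate 1, -0.45 with a minimum count of 50, -0.60 with only the 6 libraries compared and -0.62 without low-dose replicate 2.

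MHC class II presentation, the route by which dendritic cells, macrophages and B cells show antigen to helper T cells, was lower in 10 of 12 genes tested, with 4 at an unadjusted p under 0.05. The median log2 fold change was -0.87. H2-Aa stood at 647, 354 and 208 CPM under stress and at 317, 82.9 and 160 CPM with the low dose. Low-dose replicate 1 overlapped the stress range, and replicate 2 was lowest. H2-Ab1 (-1.03, SE 0.42, adjusted p = 0.35), H2-Eb1 (-1.28, SE 0.47, adjusted p = 0.32) and H2-Aa (-1.11, SE 0.46, adjusted p = 0.352) encode chains of the class II molecules themselves. H2-Ob, a chain of a regulator of peptide loading, was the only member whose groups did not overlap (-1.13, SE 0.42, adjusted p = 0.32). Its level was low, at 2.04, 1.75 and 1.78 CPM under stress and 1.29, 0.63 and 0.60 CPM with the low dose. The list median rested in part on stress replicate 1, without which it was -0.37, and on low-dose replicate 2, without which it was -0.50. MHC class I presentation showed a median of -0.05, with none of 14 genes at an unadjusted p under 0.05.

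**Figure D2:**
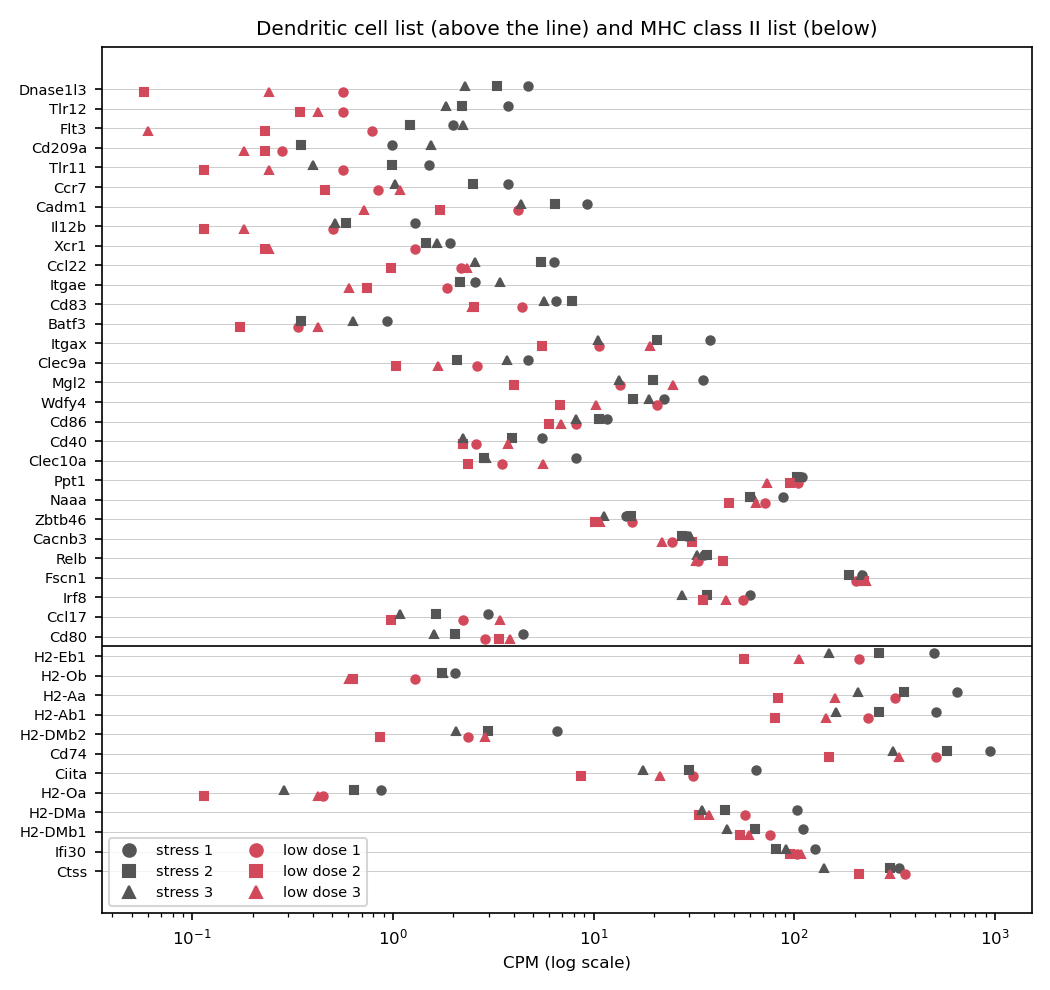
Level in CPM (log axis) of each tested member of the dendritic cell list and of the MHC class II list, with 1 marker per library, grey for stress and red for low dose. For Dnase1l3 and Tlr12, all red markers lie to the left of all grey ones, whereas for H2-Aa and most class II genes the red markers reach into the grey range.

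The related membrane protein genes Tmem176a and Tmem176b, both known from dendritic cells and macrophages, were called lower by DESeq2. Tmem176a was at 12.1, 11.2 and 8.65 CPM under stress against 5.06, 4.31 and 5.06 CPM, and Tmem176b at 38.0, 39.1 and 24.7 CPM against 18.7, 15.5 and 12.8 CPM. The groups did not overlap for either gene. The log2 fold changes were -1.15 (SE 0.23, DESeq2 adjusted p = 0.00636) and -1.11 (SE 0.26, DESeq2 adjusted p = 0.0187). Tmem176b lies outside the rule for named genes and was chosen after its values were seen.

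Macrophage genes differed in direction, and the higher ones included genes linked to tissue repair. Of 25 genes tested, 16 were higher, 5 with an unadjusted p under 0.05, and 4 of the 25 lay above all stress libraries. None was lower with a p under 0.05. Chil3, a chitinase-like protein of alternatively activated macrophages, was at 1.87, 0.874 and 0.745 CPM under stress and at 7.87, 3.28 and 84.2 CPM with the low dose. All low-dose libraries were higher, and replicate 3 far exceeded the rest. The log2 fold change was 4.76 (SE 1.25, edgeR adjusted p = 0.296, DESeq2 adjusted p = 0.00809), and 2.26 without low-dose replicate 3.

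Arg1, the arginase of the same macrophage state, had a log2 fold change of 2.10 (SE 0.74, adjusted p = 0.316), with 95.9, 141 and 16.4 CPM under stress and 190, 193 and 706 CPM with the low dose. It too was highest in low-dose replicate 3, without which the value was 1.18. Not every marker of that state was higher. The lectin genes Mgl2 (-0.69, SE 0.56, adjusted p = 0.595) and Clec10a (-0.29, SE 0.54, adjusted p = 0.833), counted with the dendritic cell genes, were lower and overlapped between the groups. Msr1, a scavenger receptor, and Lyz2, the macrophage lysozyme, lay above all stress libraries at log2 fold changes of 0.61 (SE 0.22, adjusted p = 0.317) and 0.70 (SE 0.30, adjusted p = 0.352). Stress replicate 3 was lowest in both. The lineage genes Adgre1 (-0.44, SE 0.38, adjusted p = 0.614) and Csf1r (-0.20, SE 0.27, adjusted p = 0.759) overlapped between the groups, and Csf1r was at 0.05 without low-dose replicate 2. The list median of 0.14 was -0.00 with the trends removed.

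CC chemokines draw monocytes, eosinophils and other leukocytes into tissue. Of 11 genes tested, 10 were higher, 4 with an unadjusted p under 0.05 and with no overlap between the groups, and DESeq2 called Ccl6, Ccl9 and Ccl11. The list leaves out Ccl22, a CC chemokine counted with the dendritic cell genes, which lay below all stress libraries (-1.38, SE 0.40, adjusted p = 0.296). Ccl9, which acts on monocytes and dendritic cell precursors, was at 50.5, 52.0 and 34.4 CPM under stress and at 76.3, 76.1 and 86.1 CPM with the low dose. Its low-dose libraries were close together and all higher, with a log2 fold change of 0.80 (SE 0.16, adjusted p = 0.266, DESeq2 adjusted p = 0.00547). Ccl6, a myeloid chemokine, was at 61.2, 55.0 and 20.6 CPM against 78.1, 141 and 176 CPM, a log2 fold change of 1.53 (SE 0.41, DESeq2 adjusted p = 0.00934). Ccl11, the eosinophil attractant eotaxin, was at 2.68, 0.816 and 1.20 CPM against 4.16, 2.70 and 16.1 CPM (2.28, SE 0.69, DESeq2 adjusted p = 0.0486), and at 1.13 without low-dose replicate 3.

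Ccl7, a monocyte chemokine, differed by 0.73 (SE 0.29, adjusted p = 0.341). With the length and GC trends removed it was at 0.49. Ccl2, the main monocyte chemokine, overlapped between the groups (0.29, SE 0.26, adjusted p = 0.633), and was at 0.10 with the trends removed. Ccl1 also overlapped (0.18, SE 0.63), and was at -0.16 and -0.26 without stress replicates 2 and 3. The list median of 0.29 was likewise 0.11 with those trends removed, and 0.57 with a minimum count of 50.

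Lymphocyte lists overlapped between the groups. T cell genes were lower in 22 of 25, with 1 at an unadjusted p under 0.05, and cytotoxic and natural killer cell genes in 21 of 22, with none. Stress replicate 1 had the highest score in both lists, 0.951 for T cells and 1.18 for cytotoxic cells. Without it, the medians of -0.33 and -0.49 became 0.21 and -0.08. Without stress replicate 3 they were -0.65 and -0.84, without low-dose replicate 1 that of the T cells was -0.54, without low-dose replicate 2 it was -0.19, and without low-dose replicate 3 that of the cytotoxic cells was -0.29. The type I interferon list, at a median of -0.51 with 27 of 29 genes lower and 2 at a p under 0.05, was -0.15 without stress replicate 2, the library with the highest score of 0.909, and -0.89 without stress replicate 3. For the 6 mast cell genes tested the median was -1.47, and -0.57 without stress replicate 3, whose score was 1.75. Of the 7 neutrophil genes tested 5 were higher, 1 with a p under 0.05, while Mmp9 and Csf3r were lower. The neutrophil median was 0.81, and 0.28 with a minimum count of 50. With libraries left out it ran from 0.20 without low-dose replicate 1 to 1.62 without stress replicate 3.

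**Figure D3:**
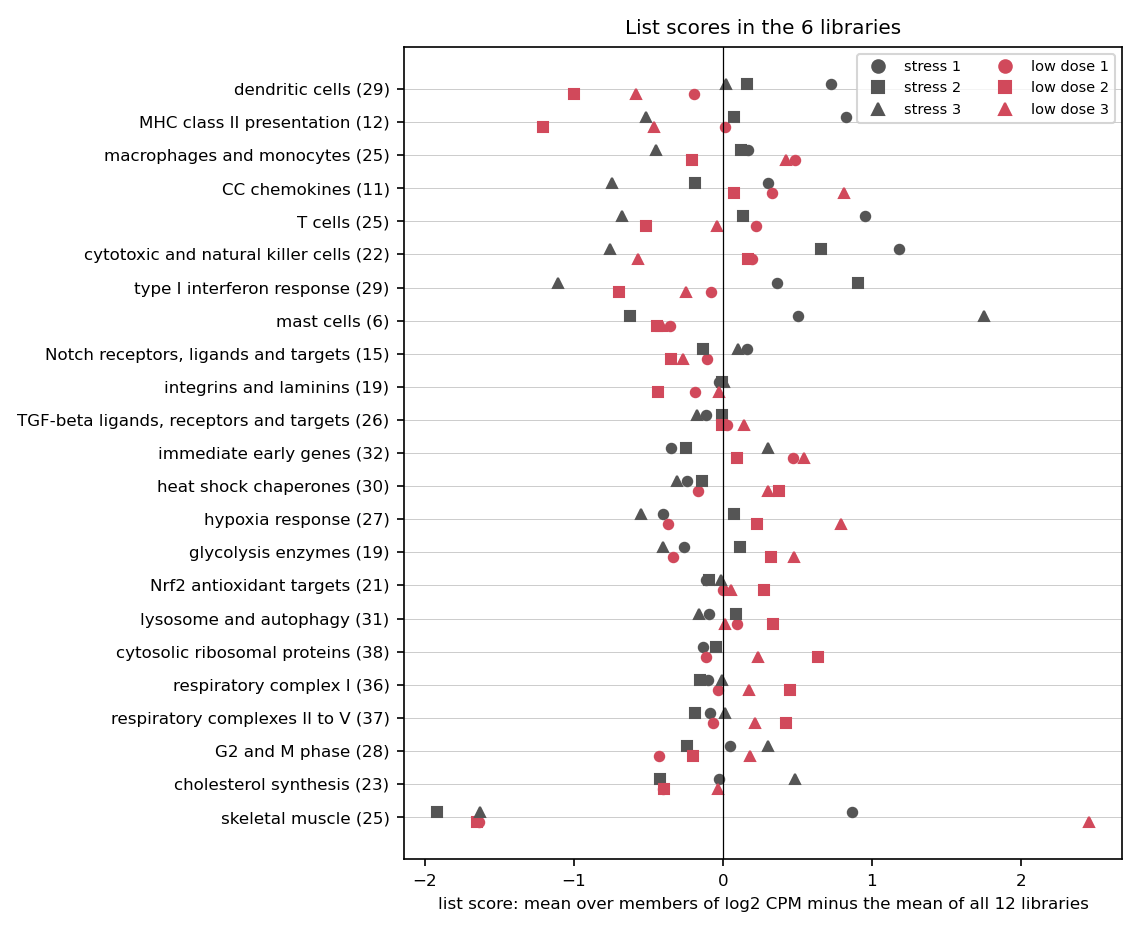
Score of each gene list in the 6 libraries, as the mean over its members of log2 CPM minus the mean of all 12 libraries, with the number of genes tested in brackets. Grey markers are stress and red markers low dose, with 1 shape per replicate number. Dendritic cell scores, which include Dnase1l3 and Tlr12, do not overlap between the groups. In contrast, T cell, hypoxia, glycolysis and ribosome scores of low-dose replicate 1 lie within the stress range.

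Vessel and matrix genes included the next of the lower genes. Notch3 (chromosome 17, 32120820 to 32166896) encodes the Notch receptor of pericytes and vascular smooth muscle. It stood at 15.3, 13.4 and 13.1 CPM under stress and at 8.26, 6.50 and 5.18 CPM with the low dose. The groups lay apart, and the spread relative to the mean was larger in the low-dose libraries. The log2 fold change was -1.06 (SE 0.18, edgeR adjusted p = 0.234, DESeq2 adjusted p = 0.00039), between -1.25 and -0.91 with single libraries left out.

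In the Notch list, 13 of 15 genes were lower, 2 of them with an unadjusted p under 0.05, and the median was -0.22, or -0.34, -0.44 and -0.33 without stress replicate 2, low-dose replicate 1 and low-dose replicate 3. The other receptors overlapped between the groups, Notch1 at -0.20 (SE 0.17) and Notch2 at -0.21 (SE 0.20), or -0.00 and -0.02 with the trends removed, as did the ligand Jag2 (-0.50, SE 0.23, adjusted p = 0.373). The target gene Hes1 was higher in all low-dose libraries (0.34, SE 0.18, adjusted p = 0.417, and 0.19 with the trends removed) and the target Hey1 was lower (-0.55, SE 0.31, adjusted p = 0.439), so the targets differed in direction and neither had a p under 0.05. Of 12 pericyte and smooth muscle genes, 9 were lower, Notch3 and the channel subunit gene Abcc9 (-0.98, SE 0.40, adjusted p = 0.341) with a p under 0.05. Mcam, an adhesion protein of pericytes, was at -0.57 (SE 0.26, adjusted p = 0.373). The contractile genes Acta2 (0.58, SE 0.45) and Tagln (1.58, SE 0.68, adjusted p = 0.362) pointed the other way, with their highest levels in low-dose replicate 3, which also held the muscle transcripts. Without that library Acta2 was at -0.02 and Tagln at 0.50. The part of the muscle transcripts in these values was not tested.

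Integrins and laminins, which hold cells to the basement membrane, were mixed. Among 19 genes tested 12 were lower, 4 with an unadjusted p under 0.05, and 1 of 7 higher genes had such a p. Itga1, a collagen receptor chain, was at 7.23, 6.53 and 6.42 CPM under stress against 3.15, 2.87 and 4.52 CPM. The groups did not overlap (-0.94, SE 0.23, DESeq2 adjusted p = 0.036). Itga6, a laminin receptor chain (-0.57, SE 0.16, adjusted p = 0.296), and Lama5, a laminin chain of vessel walls (-0.68, SE 0.21, adjusted p = 0.296), also lay below all stress libraries. With the trends removed Lama5 was at -0.40. Itga2, another collagen receptor chain, overlapped (-1.07, SE 0.47, adjusted p = 0.363). The list median of -0.19 was -0.04 with the length and GC trends removed and -0.01 without low-dose replicate 2.

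Long transcripts of the cytoskeleton and of gene regulation made up much of the rest of the lower genes chosen by p-value. Vcl, the focal adhesion protein vinculin, was at 161, 184 and 212 CPM under stress against 139, 118 and 131 CPM (-0.52, SE 0.11, adjusted p = 0.266). Syne2, which links the nucleus to the cytoskeleton, was at -0.68 (SE 0.14, adjusted p = 0.266), and Ank2, a membrane skeleton adaptor, at -1.01 (SE 0.20, adjusted p = 0.266). Etl4 (-0.68, SE 0.12, adjusted p = 0.234), Tbc1d8 (-0.79, SE 0.15, adjusted p = 0.266), Tnrc6a, a scaffold of microRNA silencing (-0.49, SE 0.10, adjusted p = 0.266), and Irs2, the insulin receptor substrate (-0.79, SE 0.17, adjusted p = 0.266), completed the set. All of them lay below every stress library, and DESeq2 called each. With the length and GC trends removed, Syne2 was at -0.43 and Tnrc6a at -0.27, each over 1.5 times closer to 0.

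Of the genes above the stress level, Vamp5 and Sdc1 had the smallest p-values among those that met the rule for named genes. Vamp5 (chromosome 6, 72368049 to 72380468), a membrane fusion protein, stood at 9.91, 9.56 and 9.11 CPM under stress and at 13.5, 18.4 and 16.2 CPM with the low dose. The stress libraries agreed closely and every low-dose library was higher, by a log2 fold change of 0.75 (SE 0.14, adjusted p = 0.266, DESeq2 adjusted p = 0.00526). Sdc1 (chromosome 12, 8771396 to 8793716), the heparan sulfate proteoglycan syndecan-1, was at 85.4, 88.2 and 88.0 CPM against 113, 118 and 136 CPM (0.49, SE 0.10, adjusted p = 0.266, DESeq2 adjusted p = 0.00325).

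Cyp26b1 (chromosome 6, 84571414 to 84593908), an enzyme that breaks down retinoic acid, was at 28.1, 22.3 and 18.9 CPM under stress and at 51.7, 55.3 and 36.9 CPM with the low dose. The groups did not overlap, and the log2 fold change was 1.05 (SE 0.21, adjusted p = 0.266, DESeq2 adjusted p = 0.00412).

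The other higher genes of the rule spanned several functions. St3gal5, the enzyme that makes the ganglioside GM3, was at 5.19, 7.17 and 5.21 CPM under stress and 11.5, 13 and 11 CPM with the low dose, with no overlap (1.01, SE 0.21, adjusted p = 0.266, DESeq2 adjusted p = 0.0055). Pdlim7, an actin-associated adaptor (0.70, SE 0.14), Atp6v0e, a subunit of the proton pump of lysosomes (0.41, SE 0.09), Tceal9 (0.47, SE 0.10) and Ndufb4, a subunit of respiratory complex I (0.55, SE 0.12), were also called by DESeq2. Gm20594, a short predicted gene, was at 1.01 (SE 0.21, adjusted p = 0.266) but at 0.60 with the length and GC trends removed. For Tceal9 the value with the trends removed was 0.25, and for Ndufb4 it was 0.33.

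**Figure D4:**
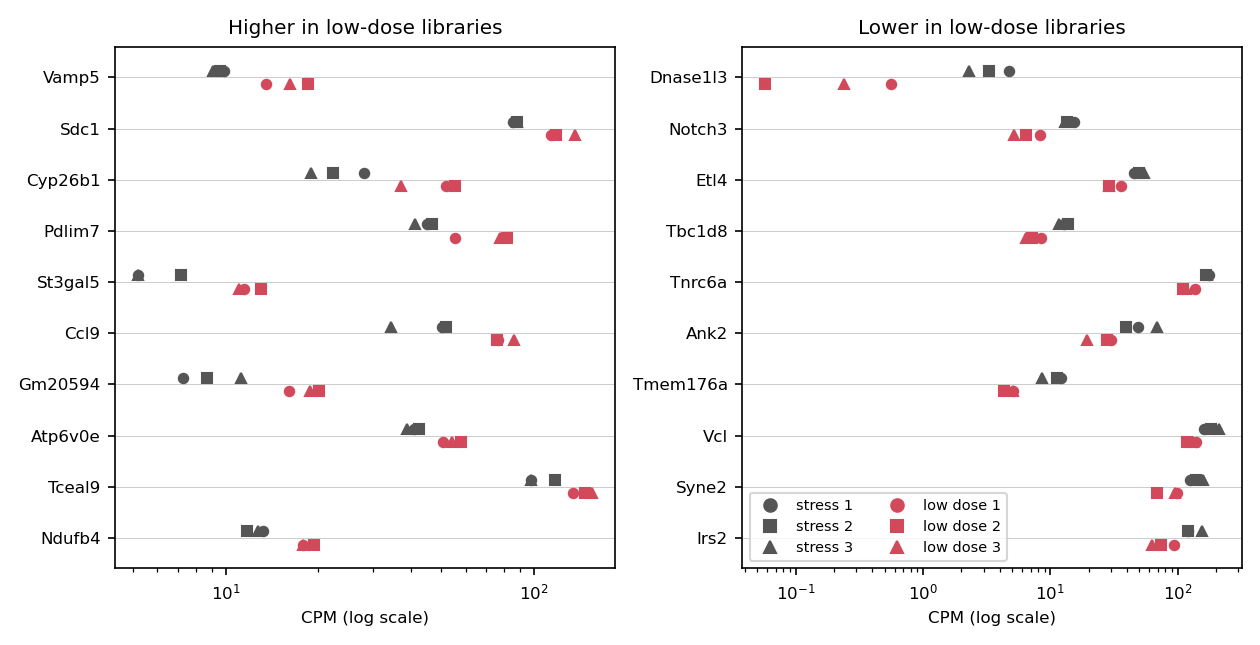
Level in CPM (log axis) in each library of the 10 higher and the 10 lower genes with the smallest p-values that met the rule for named genes. Grey markers are stress libraries, red markers low-dose libraries, and shapes mark replicate numbers. The groups do not overlap for any of the 20 genes, which the rule required, and the distance is widest for Dnase1l3, at a log2 fold change of -3.55.

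Lgr6, a receptor of the Wnt-enhancing R-spondins, was called higher by DESeq2 at a low level. It was at 0.758, 1.22 and 1.15 CPM against 1.80, 4.54 and 15.2 CPM (2.77, SE 0.62, DESeq2 adjusted p = 0.00547), and at 1.60 without low-dose replicate 3. The groups lay apart, with low-dose replicate 3 highest.

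A further 4 genes were chosen after their values were seen. Ptgis, the enzyme that makes prostacyclin, had 1, 1 and 0 counts in the stress libraries and 7, 24 and 58 in the low-dose libraries, a ratio of 43.5 with a 95% interval of 11.7 to 364 that covers counting error only. Without low-dose replicate 3 the ratio was 22.6 (5.74 to 195). Il33, an alarm cytokine of stromal and epithelial cells, was at 2.16, 0.175 and 1.38 CPM against 4.16, 5.98 and 15.7 CPM (2.79, SE 0.83, DESeq2 adjusted p = 0.0308). Its level too was highest in low-dose replicate 3, and a value without that library is not given here. Wnt7b, a Wnt ligand, was at 0.641, 0.991 and 0.916 CPM against 1.01, 6.61 and 2.95 CPM (2.04, SE 0.54, DESeq2 adjusted p = 0.0451), or 1.22 without low-dose replicate 2. Pdgfa, a growth factor for fibroblasts, was at 48.1, 55.7 and 37.6 CPM against 60.5, 80.6 and 90.9 CPM (0.71, SE 0.16, DESeq2 adjusted p = 0.0164). None of the 4 overlapped between the groups.

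Among genes of the TGF-beta pathway, ligands did not differ beyond their spread and some targets were higher. The ligand genes Tgfb1 (0.11, SE 0.11, adjusted p = 0.667) and Tgfb2 (0.26, SE 0.40, adjusted p = 0.797) overlapped between the groups. Pmepa1, a feedback inhibitor of the pathway, was at 144, 130 and 113 CPM under stress and at 213, 207 and 181 CPM with the low dose. Tgfbi, a secreted matrix protein induced by TGF-beta, was at 443, 519 and 414 CPM against 602, 617 and 655 CPM. Both lay above all stress libraries and were called by DESeq2, at 0.64 (SE 0.15, adjusted p = 0.0156) and 0.44 (SE 0.12, adjusted p = 0.0352). The inhibitor Smad7 (0.56, SE 0.21, adjusted p = 0.32) was highest in low-dose replicate 3, without which it was at 0.23. In all, 17 of 26 genes were higher, 6 with an unadjusted p under 0.05, and the median was 0.07.

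Among 17 genes of STAT3 signalling and the acute phase, 10 were higher, 3 with an unadjusted p under 0.05, and 2 of the 7 lower ones had such a p. Il6st, the signalling chain shared by the family's receptors, was at 216, 202 and 220 CPM under stress and at 192, 104 and 124 CPM with the low dose (-0.61, SE 0.18, adjusted p = 0.296). Lifr, the receptor chain for leukaemia inhibitory factor, was at -0.77 (SE 0.22, adjusted p = 0.296). Timp1, an inhibitor of matrix proteases and a target of the pathway, was at 43.6, 63.4 and 46.6 CPM against 60.1, 88.2 and 171 CPM (1.06, SE 0.34, adjusted p = 0.297), and 0.54 without low-dose replicate 3. Lifr and Timp1 overlapped between the groups at 1 library each, and Il6st did not overlap. The transcription factor Stat3 (-0.07, SE 0.13, adjusted p = 0.828) and the feedback inhibitor Socs3 (0.33, SE 0.19, adjusted p = 0.458) had no p under 0.05.

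Immediate early genes, the fast transcriptional response to growth signals and to handling of tissue, were higher in 28 of 32, with 5 at an unadjusted p under 0.05. Of the 32, 5 lay above all stress libraries. Ier3, a survival gene, was at 5.54, 7.29 and 12.5 CPM under stress and at 14.7, 16.8 and 52.1 CPM with the low dose (1.72, SE 0.48, DESeq2 adjusted p = 0.0199), and at 0.89 without low-dose replicate 3. Egr3 (1.03, SE 0.30, adjusted p = 0.296) and Dusp5, a phosphatase that switches off ERK (1.20, SE 0.39, adjusted p = 0.297), likewise lay above all stress libraries, and were at 0.62 and 0.53 without low-dose replicate 3. Junb was not apart (0.60, SE 0.21, adjusted p = 0.313). Fos varied more within the groups than between them, at 12.1, 7.17 and 76.0 CPM under stress and 134, 15.8 and 38.0 CPM with the low dose (0.98, SE 0.92), and without low-dose replicate 1 it was at -0.24. Fosb did so too (-0.02, SE 1.05), and was at 2.63 without stress replicate 3. The list median was 0.46, and 0.26 without low-dose replicate 1.

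Hypoxia response genes and glycolytic enzymes were higher in low-dose replicates 2 and 3 but not in replicate 1. Of 27 hypoxia genes 22 were higher, 6 with an unadjusted p under 0.05, and 1 lay above all stress libraries. Of 19 glycolysis genes 15 were higher, 4 with such a p and none apart. Hypoxia scores were -0.405, 0.0764 and -0.552 under stress and -0.367, 0.23 and 0.79 with the low dose. The median log2 fold changes were 0.57 and 0.48, with 0.26 for both without low-dose replicate 3, and 1.07 and 0.62 without stress replicate 2.

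Lox, which cross-links collagen, was the gene that lay apart, at 11.1, 2.86 and 5.10 CPM under stress and 19.0, 15.2 and 115 CPM with the low dose (2.97, SE 0.95, adjusted p = 0.302), and 1.42 without low-dose replicate 3. Hilpda, a lipid droplet protein (1.03, SE 0.34, adjusted p = 0.304), P4ha2, a collagen prolyl hydroxylase (1.16, SE 0.42, adjusted p = 0.32), and Ankrd37 (1.12, SE 0.41, adjusted p = 0.319) followed, each with low-dose replicate 1 within the stress range. Egln1, an oxygen sensor, was at 0.52 (SE 0.23, adjusted p = 0.359), and Vegfa, the vessel growth factor, at 0.62 (SE 0.31, adjusted p = 0.403). Of the enzymes, Pgk1 was at 602, 1110 and 553 CPM against 658, 1554 and 1844 CPM (0.84, SE 0.36, adjusted p = 0.361), Tpi1 at 0.66 (SE 0.26, adjusted p = 0.336), Pfkl at 0.58 (SE 0.25, adjusted p = 0.362), the lactate dehydrogenase gene Ldha at 0.62 (SE 0.28, adjusted p = 0.373), Hk2 at 0.79 (SE 0.40, adjusted p = 0.405) and Hk1 at 0.10 (SE 0.11, adjusted p = 0.706). Without low-dose replicate 3 Hk2 was at 0.11.

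The core letters ACGTG, to which hypoxia-inducible factors bind, were searched on both strands in the 250 bases before the first listed start of each gene (RefSeq, GRCm38.p6). They overlap with the E-box CACGTG, so other factors share them. Of the 46 hypoxia and glycolysis genes tested, 41 had a promoter sequence and 19 of these (46.3%) held the letters, against 21.4% of 10699 promoters of genes tested. A match is a description of the letters and not a measured binding site. The stretches around the match are shown for 3 members that held it. They are given on the gene's strand from 5′ to 3′, with the match in capitals. These 3 are examples and need not be the members with the smallest p.

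Ankrd37 (chr8:45999851-46000100, minus strand): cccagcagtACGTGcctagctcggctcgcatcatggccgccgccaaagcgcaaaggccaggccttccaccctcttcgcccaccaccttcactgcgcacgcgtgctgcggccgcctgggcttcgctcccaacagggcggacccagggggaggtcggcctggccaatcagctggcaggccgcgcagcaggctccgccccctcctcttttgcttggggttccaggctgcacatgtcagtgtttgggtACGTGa
P4ha2 (chr11:54100826-54100873, plus strand): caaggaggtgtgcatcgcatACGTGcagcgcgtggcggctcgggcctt
Egln1 (chr8:124949295-124949342, minus strand): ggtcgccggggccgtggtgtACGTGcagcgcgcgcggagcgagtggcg

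Heat shock chaperones were higher as a list, again with low-dose replicates 2 and 3 above replicate 1. Of 30 genes tested 29 were higher, 9 with an unadjusted p under 0.05, and 4 lay above all stress libraries. Scores were -0.243, -0.142 and -0.308 under stress and -0.166, 0.38 and 0.30 with the low dose. Hspa8, the constitutive chaperone, was at 3346, 2919 and 3063 CPM against 3870, 4491 and 4349 CPM, with no overlap (0.45, SE 0.17, adjusted p = 0.331). Ahsa1, an activator of HSP90, was at 141, 117 and 125 CPM against 149, 205 and 192 CPM (0.51, SE 0.15, adjusted p = 0.296). Hsph1 lay apart as well (0.65, SE 0.27, adjusted p = 0.341). Fkbp4, a co-chaperone of steroid receptors, was at 0.62 (SE 0.20, adjusted p = 0.296). Hspe1, the mitochondrial co-chaperone, was at 0.67 (SE 0.21, adjusted p = 0.297), or 0.41 with the trends removed. For Fkbp4 and Hspe1, low-dose replicate 1 lay within the stress range. The inducible genes Hspa1a (0.36, SE 0.66) and Hspa1b (0.61, SE 0.53) overlapped between the groups, and their counts may be shared, since these genes are near-identical copies. The list median was 0.37, and 0.29 to 0.44 with single libraries left out.

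The letters GAANNTTC and TTCNNGAA, parts of the element that heat shock factors bind, were searched in the same way. They stood in 9 of the 24 chaperone promoters found (37.5%), against 10.3% of promoters of genes tested. The stretches shown are those of 3 members that held them, with the matches in capitals. They too are examples and need not have the smallest p.

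Fkbp4 (chr6:128438780-128438827, minus strand): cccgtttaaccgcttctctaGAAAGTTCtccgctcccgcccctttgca
Hspe1 (chr1:55088039-55088096, plus strand): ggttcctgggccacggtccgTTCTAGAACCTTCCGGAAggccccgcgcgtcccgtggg
Hsph1 (chr5:149636342-149636389, minus strand): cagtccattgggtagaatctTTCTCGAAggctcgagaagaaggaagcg

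Transcripts of the translation and respiration machinery were higher in nearly every listed gene. All 38 cytosolic ribosomal protein genes tested were higher, 23 with an unadjusted p under 0.05 and 3 apart from all stress libraries, at a median of 0.37. Respiratory complex I had 35 of 36 genes higher, 13 with such a p and 11 apart, and complexes II to V had 36 of 37, 19 and 11. Their medians of 0.29 and 0.31 were 0.07 and 0.08 with the length and GC trends removed, and that of the ribosomal genes was 0.13. The counts with such a p fell with those trends removed to 3 of 38, 5 of 36 and 5 of 37. Low-dose replicate 2, the library with the strongest length trend, had the highest scores, 0.636 for ribosomal proteins and 0.448 for complex I, and without it the medians were 0.15, 0.14 and 0.19 and the counts 3, 7 and 8.

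Ribosomal protein genes have many processed copies, which the counting may have split. Rps14 was at 674, 782 and 745 CPM under stress and at 864, 1441 and 1105 CPM with the low dose (0.63, SE 0.16, DESeq2 adjusted p = 0.0228), and 0.39 with the trends removed. Rpl36a, named after its values were seen, was at 192, 226 and 168 CPM under stress and at 244, 406 and 342 CPM with the low dose (0.76, SE 0.17, DESeq2 adjusted p = 0.00813), and 0.48 with the trends removed. Rpl38 was at 0.58 (SE 0.17, adjusted p = 0.296), or 0.21 with the trends removed, Rpl32 at 0.51 (SE 0.16), or 0.25, and Rps29 at 0.38 (SE 0.13), or 0.03. In contrast, Rpl3 (0.19, SE 0.13, adjusted p = 0.531) and Rpl4 (0.15, SE 0.14, adjusted p = 0.644) overlapped between the groups. Among respiratory subunits, Ndufb4 was at 13.2, 11.7 and 12.7 CPM against 17.8, 19.4 and 17.8 CPM. Ndufb11 (0.58, SE 0.15, adjusted p = 0.296), Ndufa2 (0.63, SE 0.18, adjusted p = 0.296), Ndufa1 (0.55, SE 0.15, adjusted p = 0.296) and Uqcrb of complex III (0.44, SE 0.11, adjusted p = 0.296) lay apart as well. With the trends removed these 4 were at 0.33, 0.30, 0.18 and 0.11. Cox7c of complex IV (0.47, SE 0.13) and the ATP synthase subunit genes Atp5j2 (0.43, SE 0.12) and Atp5l (0.41, SE 0.12) also lay apart. Their values with the trends removed are not given here, but the median of their list was then 0.08. The complex II subunit genes Sdha (0.02, SE 0.08) and Sdhb (0.22, SE 0.13) overlapped.

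**Figure D5:**
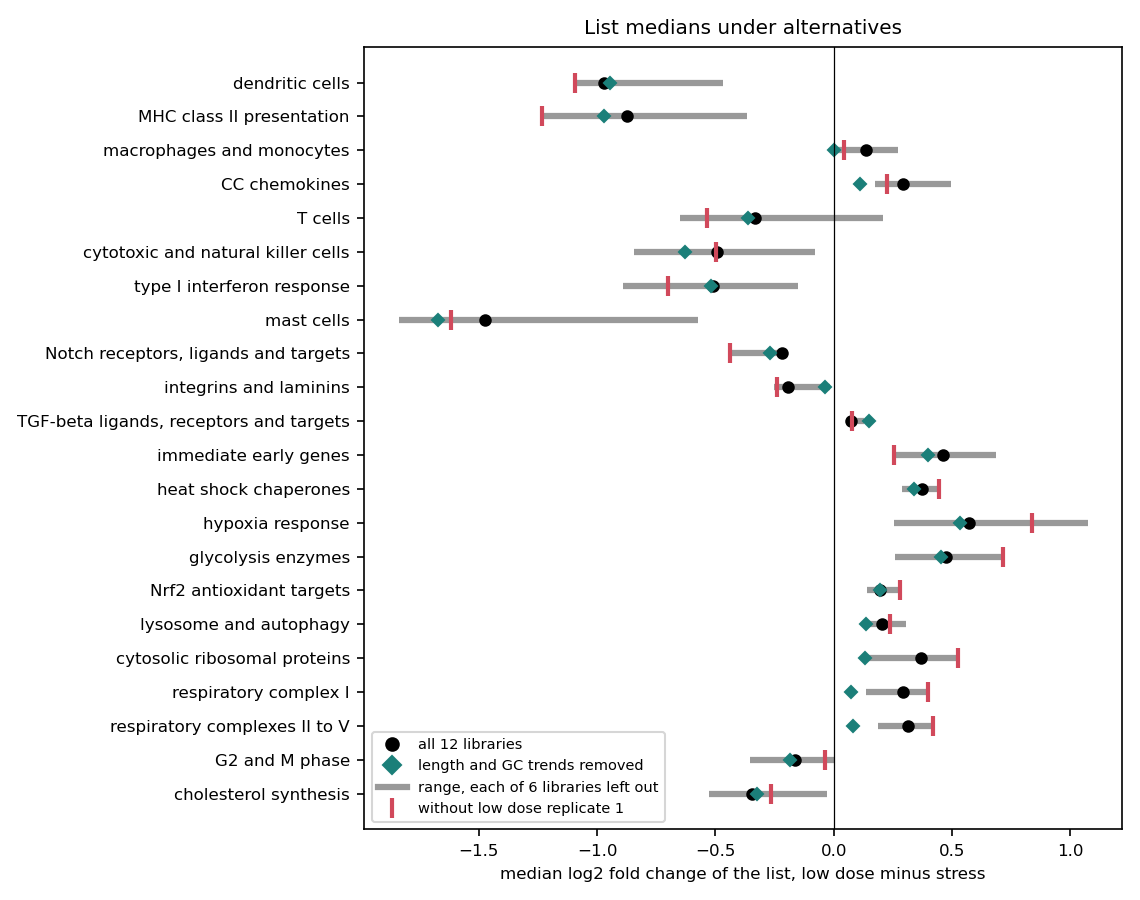
Median log2 fold change of each list, low dose minus stress. Black circles are the values with all 12 libraries, green diamonds those with length and GC trends removed, grey bars the range with each of the 6 libraries left out in turn, and red ticks the value without low-dose replicate 1. The dendritic cell median stays at -0.95 with the trends removed, whereas the medians of the respiratory complexes move to 0.07 and 0.08.

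The Nrf2 response to oxidants and a few genes of iron handling, for which there was no list, are described next. Among 21 Nrf2 targets 16 were higher, 7 with an unadjusted p under 0.05 and 6 apart, and the median was 0.19, or 0.20 with the length and GC trends removed. Prdx1, a peroxide-reducing enzyme, was at 367, 343 and 383 CPM under stress and at 411, 541 and 448 CPM with the low dose (0.36, SE 0.12, adjusted p = 0.301). Pgd (0.34, SE 0.11, adjusted p = 0.304) and Taldo1 (0.38, SE 0.13, adjusted p = 0.304), enzymes of the pentose phosphate pathway, lay apart too, and Taldo1 was at 0.20 with the trends removed. The regulator Nfe2l2 (0.00, SE 0.09, adjusted p = 0.998) and its inhibitor Keap1 (0.01, SE 0.11, adjusted p = 0.965) overlapped between the groups.

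Tfrc, the transferrin receptor that brings iron into cells, was at 106, 120 and 254 CPM under stress and at 49.2, 40.9 and 88.0 CPM with the low dose. All low-dose libraries were lower (-1.43, SE 0.37, DESeq2 adjusted p = 0.0124), and the value was -0.92 without stress replicate 3. Hmox1, which breaks down heme, was at 33.1, 48.7 and 23.3 CPM against 69.9, 85.6 and 56.7 CPM, also apart (1.01, SE 0.45, adjusted p = 0.366). The ferritin light chain gene Ftl1 was at 736, 978 and 715 CPM against 969, 2013 and 974 CPM, with low-dose replicate 2 highest and replicates 1 and 3 just inside the stress range (0.70, SE 0.26, adjusted p = 0.319), and at 0.27 without that replicate 2 and 0.42 with the trends removed. The heavy chain gene Fth1 overlapped between the groups too (0.56, SE 0.23, adjusted p = 0.347), and was at 0.26 without low-dose replicate 2. Tfrc, Hmox1 and Fth1 were chosen after their values were seen.

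Lysosomal genes were higher in 26 of 31, 5 of them with an unadjusted p under 0.05, at a median of 0.20. Of the 31, 2 lay above all stress libraries and 1 below them, beside 5.37% and 6.57% of all genes tested. Ctsd, the aspartic protease of lysosomes, was at 337, 376 and 268 CPM under stress and at 501, 731 and 439 CPM with the low dose, with no overlap (0.77, SE 0.22, adjusted p = 0.296). Ctsl, a cysteine protease, was at 0.68 (SE 0.22, adjusted p = 0.296), and Atp6v1h, a subunit of the proton pump, at 0.33 (SE 0.12, adjusted p = 0.315). For both, low-dose replicate 1 lay within the stress range. Wipi1, an autophagy protein, was lower (-0.24, SE 0.10, adjusted p = 0.341). The membrane proteins Lamp1 (0.20, SE 0.14, adjusted p = 0.528) and Lamp2 (0.20, SE 0.19, adjusted p = 0.663) overlapped between the groups.

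The low dose was also set against the high dose. The stress libraries are not compared here, but they enter the filter, the scaling and the estimate of spread. No gene passed in edgeR (0%), the smallest adjusted p was 0.549, and 860 genes had an unadjusted p under 0.05 (6.39%). DESeq2 called 5 genes, Dnase1l3, Notch3 and Tlr12 lower in the low dose and Gm20594 and Tmem254c higher. Without low-dose replicate 1, edgeR called 99 genes.

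Dnase1l3 was at 2.50, 3.76 and 1.63 CPM in the high-dose libraries, all above the low-dose libraries, and low minus high was -3.16 (SE 0.55, adjusted p = 0.549, DESeq2 adjusted p = 0.000202). Tlr12 was at 1.72, 2.94 and 1.86 CPM, with low minus high at -2.27 (SE 0.38, adjusted p = 0.549, DESeq2 adjusted p = 0.00622). For Notch3 the high dose stood at 14.8, 11.5 and 12.2 CPM and low minus high was -0.95 (SE 0.18, adjusted p = 0.549, DESeq2 adjusted p = 0.00567). Against the stress libraries, which both doses share as reference, the high dose was at -0.39 (SE 0.45) for Dnase1l3, -0.25 (SE 0.34) for Tlr12 and -0.12 (SE 0.17) for Notch3.

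Gm20594 was at 9.78, 6.82 and 8.19 CPM with the high dose, all below the low-dose libraries, and low minus high was 1.15 (SE 0.21, adjusted p = 0.549, DESeq2 adjusted p = 0.00354). The high dose differed from stress by -0.13 (SE 0.21) for this gene. Tmem254c was at 0.222, 0.176 and 0.29 CPM with the high dose and at 5.00, 2.19 and 5.60 CPM with the low dose (DESeq2 adjusted p = 0.00695), but its stress libraries ranged from 0.458 to 8.63 CPM. Of the 23 genes that the rule took from all genes tested, 21 had an unadjusted p under 0.05 for low minus high, beside 6.39% of all genes. Those genes were chosen with the same low-dose libraries, so nothing is read from that count. Lgr6 (2.31, SE 0.60), Tmem176a (-0.93, SE 0.23) and Etl4 (-0.54, SE 0.12) had an adjusted p = 0.758 for low minus high.

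The doses lay closer for Tfrc, Cyp26b1 and Hmox1, which were picked here after their values were seen. For Tfrc the high dose was at -1.53 (SE 0.38) against stress beside -1.43 (SE 0.37) for the low dose, and low minus high was 0.10 (SE 0.37, adjusted p = 0.952). For Cyp26b1 the high dose was at 0.71 (SE 0.21) and the low dose at 1.05 (SE 0.21), with low minus high at 0.34 (SE 0.21, adjusted p = 0.758). For Hmox1 the high dose was at 1.44 (SE 0.45) and the low dose at 1.01 (SE 0.45), with low minus high at -0.42 (SE 0.44, adjusted p = 0.815). Ccl9 was at 60.4, 43.0 and 55.7 CPM with the high dose, below every low-dose library, and low minus high was 0.58 (SE 0.16, adjusted p = 0.758). An adjusted p above the threshold does not show that the doses acted alike.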

How the data were processed

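Messenger RNA of 12 tumour libraries in 4 groups of 3 was measured by sequencing. Per the submitters' processing notes, the tools were cutadapt 1.9, HISAT2 2.0.4, StringTie 1.3.4d, DESeq2 and edgeR, with the GRCm38.p6 genome. The annotation and counting options are not given in the sources used here. The authors deposited estimated counts per gene, of which 11.7% to 12.5% per library were not whole numbers, and these were rounded to whole numbers although whole counts had been assumed when the tests were chosen. The authors also deposited FPKM values, used here for levels per length, and TPM values, which were not used. Library totals ran from 16734741 to 17950195. Genes with enough counts (edgeR filterByExpr, minimum count of 10) were fitted over all 12 libraries with TMM scaling and edgeR's robust quasi-likelihood test (edgeR 4.0.16, limma 3.58.1, R 4.3.3), with Benjamini-Hochberg adjustment over 13453 genes and a threshold of 0.05. Tests were 2-sided. DESeq2 1.42.0 was an alternative. A SE is that of the log2 fold change. Samples were grouped by their labels, and no sample was left out of the fit.

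The rule for named genes took, in each direction, the 10 genes with the smallest p whose groups did not overlap and whose mean FPKM reached 1 in the higher group, and the 5 with the smallest DESeq2 p. For each list described gene by gene it took up to 4 members with the smallest p and the first 2 entries. Egln1, Hsph1 and Tmem254c lie outside it and were chosen after their values were seen, as were the genes so named in the text. Some genes that the rule names are not reported here. The 51 lists held 1131 entries: 1114 were found by symbol, 1 by synonym and 16 not at all. The members and lists were chosen with earlier results of these data known. Sequences are RefSeq's. On simulated data for this comparison (13355 genes), edgeR recovered 28.4% of the genes altered 1.5-fold, 56.2% of those altered 2-fold and 87.3% of those altered 4-fold, with 12 unaltered genes called. In the measured libraries edgeR called 0 genes, and Dnase1l3, at a log2 fold change of -3.55, had an edgeR adjusted p of 0.205. Whether the shares recovered also hold for the measured libraries was not tested. Alternatives changed the scaling, the filter, the test, the libraries fitted, a replicate block, length and GC trends, and a skeletal muscle covariate.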

Additional observations from a re-analysis of the deposited data

How the results depend on the processing

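For low dose against stress, no alternative with edgeR or limma-voom called a gene at an adjusted p under 0.05, except the fit without low-dose replicate 1. With libraries left out in turn the count ran from 0 to 1244, and that at an unadjusted p under 0.05 from 1109 to 3874, beside 1796 with all. DESeq2 called 95, 13 with only the 6 libraries compared, 47 with length and GC trends removed, and 31 to 2146 with libraries left out. These DESeq2 refits were chosen after seeing the data. The unadjusted count was 797 with only the 6 libraries and 224 where the log2 fold change also had to reach 1. RLE size factors moved the share of higher genes among those with an unadjusted p under 0.05 from 50.9% to 57.3%, and the length and GC correction moved it to 56.3%. For low against high dose, DESeq2 called 5 genes, and of the named genes edgeR called 0 to 14 with libraries left out. Of 51 list medians, 33 kept their sign under all alternatives, as did 131 of 150 named genes. The cause of these changes was not tested.

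The replicate numbers share only a name: nothing in the labels pairs animals. With a replicate block, edgeR called 0 genes, and 1717 had an unadjusted p under 0.05. Same-numbered stress and low-dose libraries correlated in their deviations at 0.13, 0.113 and 0.0488, and 4 of 12 libraries matched their own number best.

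The named genes below changed sign under an alternative. With libraries left out in turn, Acta2 ran from -0.0223 to 0.812, Ccl1 ran from -0.256 to 1.61, Ccnb1 ran from -0.348 to 0.0552 and Ccnb2 ran from -0.402 to 0.025. Likewise, Csf1r ran from -0.617 to 0.0532, Fos ran from -0.242 to 2.72, Fosb ran from -0.542 to 2.63 and Hk1 ran from -0.0234 to 0.166. In the same fits, Hspa1a ran from -0.0376 to 1.47, Keap1 ran from -0.0408 to 0.0851, Nfe2l2 ran from -0.0322 to 0.039 and Pdgfrb ran from -0.308 to 0.0852. Finally, Rpl4 ran from -0.00795 to 0.304, Sdha ran from -0.0101 to 0.0841, Stat3 ran from -0.174 to 0.0124 and Tmem254c ran from -0.0953 to 3.02. Of the tissue markers, Lgals4 ran from -0.177 to 0.508, Mmp9 ran from -0.629 to 0.087 and Muc2 ran from -0.278 to 0.529. By limma-voom, Fosb was at 1.44. With the replicate block, Fosb was at 0.673 and Nfe2l2 was at -0.000927. Adjusted for the muscle score, Fosb was at 0.419 and Keap1 was at -0.00143. With the length and GC trends removed, Lgals4 was at -0.0203, Nfe2l2 was at -0.0535, Rpl4 was at -0.015, Sdha was at -0.0095 and Stat3 was at 0.0641.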

Other observations

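Cell division and the circadian clock gave values that belong to none of the groups above. Genes of the G2 and M phases were lower in 23 of 28, 4 with an unadjusted p under 0.05 by edgeR, at a median log2 fold change of -0.17, and 0.00 without stress replicate 3, the stress library with the highest score of 0.30. It was -0.04 without low-dose replicate 1, with 17 of 28 lower, -0.30 without stress replicate 2 and -0.35 without low-dose replicate 3. Mki67, the proliferation antigen Ki-67, was at 696, 544 and 808 CPM under stress and at 444, 385 and 596 CPM with the low dose, so the groups overlapped (-0.52, SE 0.19, adjusted p = 0.316). It was at -0.32 with the length and GC trends removed. Cenpf, a kinetochore protein, was at -0.52 (SE 0.20, adjusted p = 0.32) and at -0.30 with the trends removed. Nusap1 (-0.30, SE 0.13) and Cenpe (-0.42, SE 0.19), both of the mitotic spindle, overlapped between the groups, as did the mitotic cyclin genes Ccnb1 (-0.12, SE 0.20) and Ccnb2 (-0.24, SE 0.17). DNA replication genes had a median of 0.10, with none of 25 at a p under 0.05.

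Among 17 clock genes, 8 were higher and 9 lower, 3 and 2 of them with an unadjusted p under 0.05. Per1, a clock repressor that glucocorticoids also induce, was at 143, 139 and 178 CPM under stress and at 124, 92.8 and 71.2 CPM with the low dose, with no overlap (-0.68, SE 0.22, adjusted p = 0.299). Bhlhe40, a clock repressor also induced by low oxygen, was at 54.8, 70.8 and 49.4 CPM against 75.4, 76.6 and 156 CPM (0.82, SE 0.30, adjusted p = 0.32), and at 0.38 without low-dose replicate 3. The repressor genes Cry1 (0.42, SE 0.13, adjusted p = 0.296) and Bhlhe41 (0.44, SE 0.18, adjusted p = 0.351) also lay above all stress libraries. The activator genes Arntl (0.10, SE 0.11) and Clock (-0.22, SE 0.11) overlapped. The time of day at which tumours were taken is not given in the sources used here. Fibroblast genes were higher in 13 of 18, 4 with such a p, at a median of 0.29. Pdpn, the membrane glycoprotein podoplanin, was at 104, 122 and 111 CPM against 128, 160 and 146 CPM (0.36, SE 0.10, adjusted p = 0.296). Mfap5, a microfibril protein, was at 8.16, 1.40 and 2.41 CPM against 12.1, 8.97 and 32.3 CPM (2.15, SE 0.75, adjusted p = 0.316). Its level was highest in low-dose replicate 3, and a value without that library is not given here. Postn, the matrix protein periostin (1.14, SE 0.44), and Twist1, a mesenchymal transcription factor (0.29, SE 0.12), overlapped, as did the receptor genes Pdgfra (-0.31, SE 0.40) and Pdgfrb (-0.14, SE 0.26).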
